A study of Mus musculus with 22 samples.

Results

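The comparison described here sets lung epithelial cells (ECs) of wildtype (WT) mice after house dust mite (HDM) exposure against lung ECs of untreated WT mice. It covers 20694 protein-coding genes outside chromosomes X and Y, of 54373 genes listed, in 8 of the 22 libraries of the series. The groups were 4 libraries labelled WT and HDM-sensitized and 4 labelled WT at steady state. The mice were C57BL/6 of both sexes with no transgene or altered allele named, and the study's methods give only a lower limit of their age. HDM mice received Dermatophagoides farinae extract into the nose, once for sensitisation and again on consecutive days later, and their lungs were taken after the last dose. Lungs were digested with dispase, and singlet, live, CD45-CD31-EpCAM+ cells were sorted. The HDM libraries and the steady-state libraries stand in tables named as separate sequencing runs, so HDM exposure and run cannot be told apart. The number of mice behind each library is not stated, and p-values then measure only the spread between these libraries, which may be technical.

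The lung epithelium lines the airways with club, goblet and ciliated cells and the alveoli with flat alveolar type 1 (AT1) cells, which carry gas exchange, and cuboidal alveolar type 2 (AT2) cells, which secrete surfactant and can renew AT1 cells. Inhaled allergens with protease activity, such as those of HDM, act on this layer. In type 2 inflammation, interleukins 4 and 13 signal through IL-4 receptor alpha and STAT6 and drive mucus genes, while epithelial alarmins such as IL-33 act on lymphoid and myeloid cells. A sort against CD45 and CD31 and for EpCAM enriches epithelium but need not exclude every other cell.

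Of the 20694 genes, 13997 passed the filter on low counts and were tested. HDM and steady-state libraries differed in 6918 of them by the quasi-likelihood test of edgeR, with p-values adjusted after Benjamini and Hochberg and a threshold of 0.05, which is 49.4% of the genes tested. Of these differentially expressed genes (DEGs), 3816 (27.3% of those tested) were higher and 3102 (22.2%) lower after HDM. The median absolute log2 fold change was 1.59 among the higher and 1.25 among the lower DEGs, and 4760 DEGs reached an absolute log2 fold change of 1. All 4 HDM libraries lay above all 4 steady-state libraries in 3434 genes (24.5%) and below them in 3139 (22.4%). With shares of this size, the count for any gene group below is read against 27.3% higher and 22.2% lower. The first principal component held 71.2% of the variance and separated the states. Pearson correlations of log2 CPM (read counts scaled to TMM-adjusted library size) were at least 0.95 among steady-state libraries, at least 0.89 among HDM libraries and between 0.66 and 0.82 across states.

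Several measures moved with the state. Total counts ranged from 10476829 to 17707000 at steady state and from 9654825 to 15512503 after HDM, but the predicted gene Gm10800 took 14.3% to 21.7% and 6.18% to 67.5% of them. Outside predicted genes that took at least 1% of some library, HDM replicate 2 held the fewest counts, 1570852, and HDM replicate 3 held 3573310. The steady-state libraries held 7595905 to 13569308. In HDM replicates 2 and 3, 3 counts correspond to 1.06 and 0.535 CPM, against 0.138 to 0.234 CPM at steady state. Without HDM replicate 2, 7401 genes passed. Transcripts of the Y-linked gene Ddx3y were at 76.2 to 92.5 CPM in every steady-state library and at 0 in every HDM library, while Xist was at 1.01 to 3.08 and 94.6 to 209 CPM. State, run and these sex-linked transcripts coincide in the 8 libraries and cannot be told apart, although X and Y genes were left out of the main tests. An alternative fit of all genes of the tables and the test outside the protein-coding class kept X and Y genes.

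**Figure D1:**
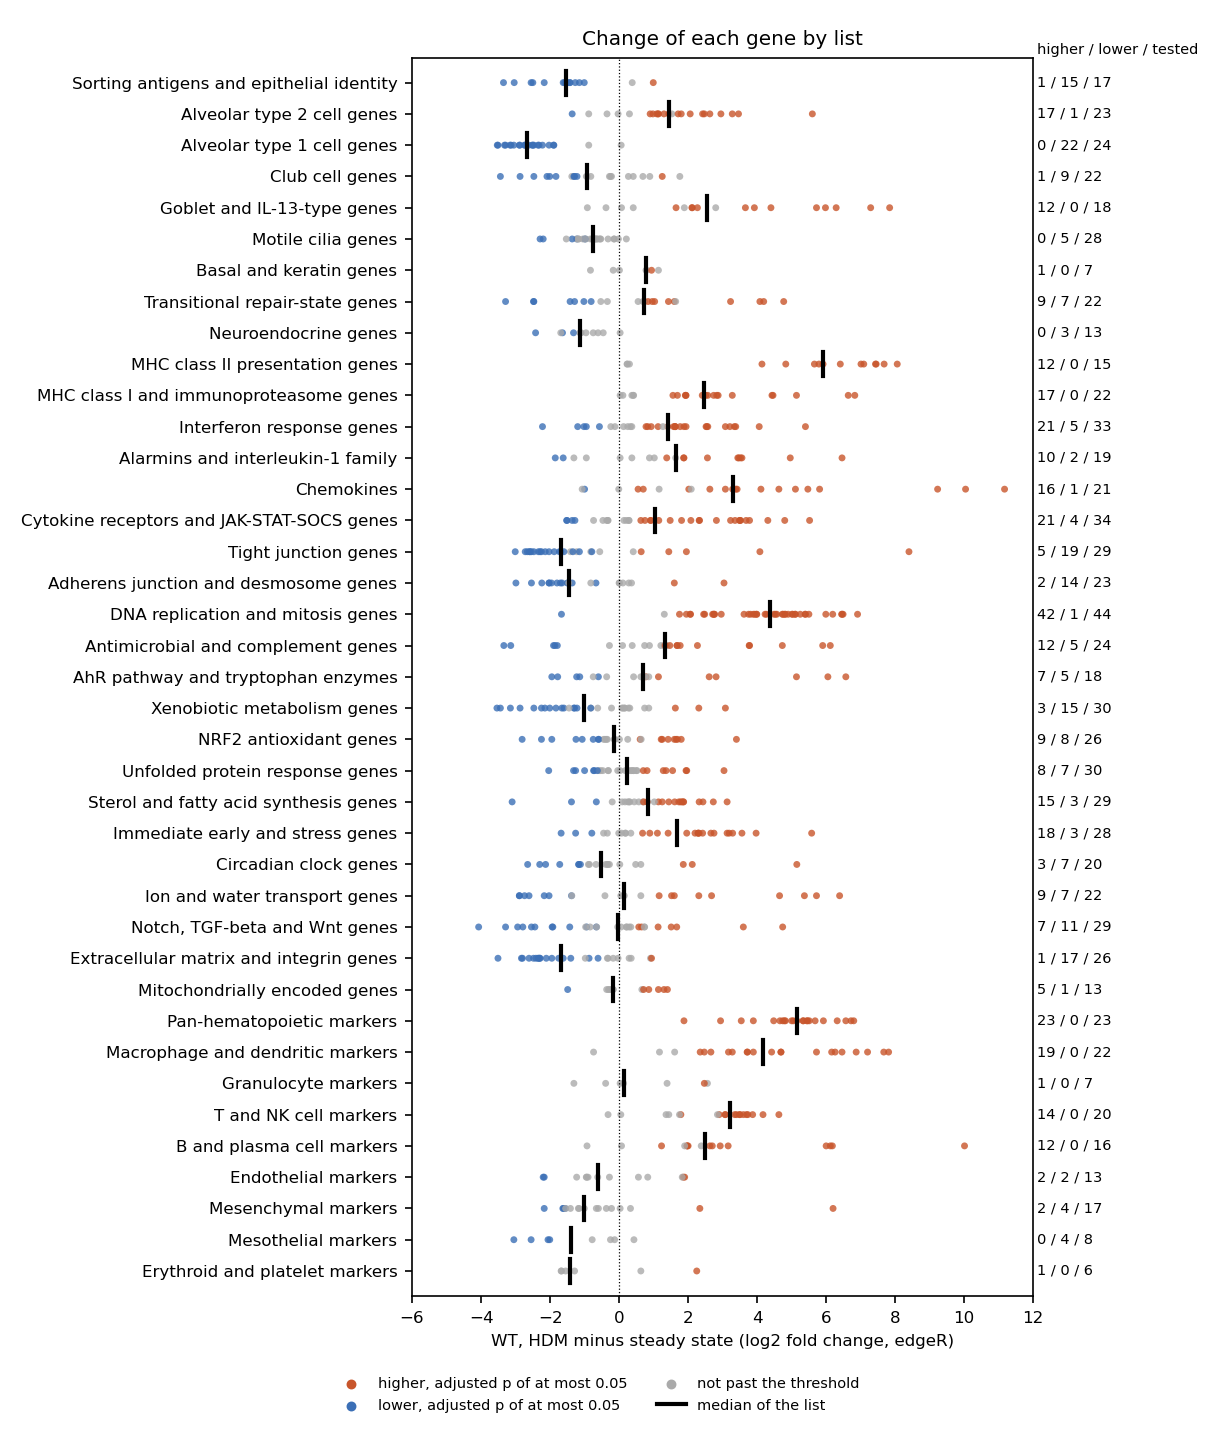
Log2 fold change of HDM over steady state (horizontal axis) for every tested gene of 39 gene lists (rows), with 1 point a gene, coloured by its call at an adjusted p of at most 0.05 and a bar at the median of the list. Pan-hematopoietic markers, MHC class II genes and DNA replication and mitosis genes lie far to the right (medians 5.15, 5.91 and 4.38), and AT1 genes to the left (median -2.66).

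The genes of lowest p included chemokine and immune receptor genes, with Qpct, Tlr11 and Ccl17 first. Ccl17 (ENSMUSG00000031780, chromosome 8, 94810453 to 94812036, on GRCm38), a chemokine that attracts CCR4-bearing T cells, was counted at 0.292, 0.073, 0.078 and 0.046 CPM in steady-state replicates 1 to 4 and at 265, 162, 382 and 333 CPM in HDM replicates 1 to 4. It rose by 11.17 ± 0.51 on the log2 scale (± is the standard error throughout, edgeR adjusted p = 2.16e-06), from 7 reads in all at steady state, so the size of this change is uncertain. Qpct, which encodes glutaminyl cyclase, was at 1.46, 0.879, 0.938 and 0.782 CPM and at 232, 119, 193 and 143 CPM, a rise of 7.41 ± 0.33 (edgeR adjusted p = 2.16e-06). For both genes every HDM library was more than 10 times above the highest steady-state library. The pathogen sensor Tlr11, the fatty acid receptor Ffar4 and the lectin receptor Klrb1b were also among them, with log2 fold changes of 5.79 ± 0.26, 4.81 ± 0.23 and 6.84 ± 0.34. For Klrb1b, 27.2% of the 50-base stretches of its transcripts are shared with another gene, so its counts are uncertain.

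Xcr1, the chemokine receptor of type 1 conventional dendritic cells, was at 0.365, 1.1, 1.17 and 0.46 CPM and at 172, 126, 205 and 115 CPM, a rise of 7.67 ± 0.40 (edgeR adjusted p = 2.62e-06). Among the lower genes, Thrb, which encodes a thyroid hormone receptor, was at 36.2, 40, 46.2 and 44 CPM at steady state and at 4.47, 4.95, 3.56 and 3.36 CPM after HDM. It was 10.3-fold lower (edgeR adjusted p = 2.62e-06), and the states did not overlap. Gpat3, an acyltransferase of triglyceride synthesis, was at 35.2, 34.3, 27.2 and 32.7 CPM and at 3.29, 3.54, 3.56 and 2.6 CPM, and fell by 3.34 ± 0.18 on the log2 scale. Its exons overlap an antisense transcript over 30.04% of their length, and whether the counting used strand is not stated. Edem3, of endoplasmic reticulum quality control, and Rnd1, a small GTPase, had log2 fold changes of -2.70 ± 0.16 and -3.54 ± 0.21.

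All 23 pan-hematopoietic markers tested rose, and their summed level was 582, 251, 188 and 138 CPM in the steady-state libraries and 7632, 4024, 10680 and 7506 CPM in the HDM libraries. Ptprc, which encodes CD45, the antigen the sort selected against, was at 64.4, 17.2, 6.25 and 2.02 CPM at steady state and at 477, 292, 747 and 478 CPM after HDM. It rose by 4.48 ± 0.92 on the log2 scale (edgeR adjusted p = 0.00235), and even the highest steady-state library, replicate 1, was below every HDM library. Coro1a, an actin regulator of leukocytes, was at 23.4, 5.93, 1.25 and 0.276 CPM and at 703, 276, 898 and 569 CPM (6.32 ± 1.15). Laptm5 and Lcp1, both leukocyte genes, had log2 fold changes of 5.68 ± 1.08 and 4.74 ± 0.49. With the pan-hematopoietic level of each library as a covariate, 0 genes passed in edgeR (1891 at an unadjusted p under 0.05), so the state and this level cannot be told apart in a single fit.

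Of 22 macrophage and dendritic markers tested, 19 rose and 3 did not pass. None passed as lower, but 1 had all HDM libraries below all steady-state libraries, and the lowest log2 fold change was -0.74. The summed level of the list was 396, 316, 275 and 290.1 CPM at steady state and 2364, 1390, 4513 and 2991 CPM after HDM. Flt3, the receptor that dendritic cell progenitors need, was at 2.56, 3.66, 3.36 and 1.79 CPM and at 236, 122, 331 and 303 CPM, a rise of 6.46 ± 0.40 (edgeR adjusted p = 3.51e-06). Clec9a, a receptor of cross-presenting dendritic cells, was at 0.877, 0.44, 1.09 and 0.046 CPM and at 58.7, 36.4, 44.9 and 34.9 CPM (6.26 ± 0.51). Zbtb46, a transcription factor of conventional dendritic cells, rose by 4.69 ± 0.36, and Mpeg1, which encodes perforin-2, by 6.16 ± 0.44. For the macrophage genes Cd68, Adgre1 and Mrc1 the log2 fold changes were 4.42 ± 0.81, 2.66 ± 0.75 and 3.28 ± 0.84. Adgre1, which encodes F4/80, was between 0.965 and 9.06 CPM at steady state and between 4.6 and 33.3 CPM after HDM, so the states overlapped.

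Of 20 T and NK cell markers tested, 14 rose, with summed levels of 60.9, 30.3, 23.1 and 11.4 CPM at steady state and 246, 369.6, 179 and 113 CPM after HDM. Cd3d, a chain of the CD3 complex, was at 0.877, 0.366, 0.078 and 0.138 CPM and at 8.83, 16.6, 1.07 and 0.84 CPM, so HDM replicates 3 and 4 were near the steady-state level. It rose by 4.17 ± 1.06 (edgeR adjusted p = 0.0073), while Cd3e at 1.36 ± 0.62 did not pass (edgeR adjusted p = 0.0939), and Cd8a rose by 3.60 ± 0.48. Of 16 B and plasma cell markers, 12 rose. Jchain, the joining chain of polymeric IgA and IgM, was at 0.877, 0.44, 1.49 and 0.184 CPM and at 954, 343, 1122 and 543 CPM, a rise of 10.01 ± 0.70 (edgeR adjusted p = 5.02e-06). Spib and Irf4, transcription factors of B, plasma and dendritic cells, rose by 6.18 ± 0.48 and 6.12 ± 0.71, and the B cell gene Ms4a1 by 1.97 ± 0.67, a call that several single-library omissions ended (adjusted p up to 0.122). Immunoglobulin and T cell receptor segments, which are outside the protein-coding class, held 0.00293% to 0.023% of counts at steady state and 0.0748% to 1.11% after HDM.

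Granulocyte, stromal and vascular markers showed no common direction. Of 7 granulocyte markers tested, 1 rose, Siglecf, which alveolar macrophages also carry, by 2.47 ± 0.74, a call lost without steady-state replicate 2 or 3 (adjusted p = 0.0509 and 0.0511). S100a8, a neutrophil calcium-binding protein, was at 97.1, 25.6, 5 and 0.322 CPM and at 25.2, 15.6, 7.66 and 2.69 CPM. Its steady-state libraries spread from 0.322 to 97.1 CPM, and the change of -1.31 ± 1.17 did not pass (edgeR adjusted p = 0.386). S100a9 and Csf3r, the receptor for G-CSF, had log2 fold changes of 0.03 ± 1.02 and -0.39 ± 0.85 and did not pass. Pecam1, which encodes CD31, another antigen the sort selected against, was at 8.84, 3.74, 1.33 and 1.29 CPM and at 9.47, 9.9, 24.8 and 10.8 CPM, a rise of 1.86 ± 0.61 (edgeR adjusted p = 0.0263) that was lost without HDM replicate 3 or steady-state replicate 2, 3 or 4 (adjusted p = 0.0504 to 0.0886). Of 13 endothelial markers tested, Pecam1 and Flt1 rose, Esam (-2.17 ± 0.40) and Tek fell, and Cdh5, which encodes VE-cadherin, was between 0.782 and 3.65 CPM at steady state and between 0.54 and 1.6 CPM after HDM. Of 17 mesenchymal markers, 2 rose and 4 fell. Vim, which encodes vimentin and is abundant in leukocytes too, was at 18.4, 13, 4.61 and 4.46 CPM and at 721, 260.3, 1022 and 959.6 CPM (6.20 ± 0.65), while the collagen genes Col1a1 and Col3a1 had log2 fold changes of -1.63 ± 0.33 and -1.56 ± 0.31. Gpm6a, counted here as a mesothelial marker, fell by 3.05 ± 0.52 on the log2 scale, while Msln, the mesothelial surface antigen mesothelin, did not pass at 0.43 ± 0.53. Of 8 mesothelial markers tested 4 fell and none rose (median -1.40), and of 6 erythroid and platelet markers 1 rose, Pf4 (median -1.42).

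**Figure D2:**
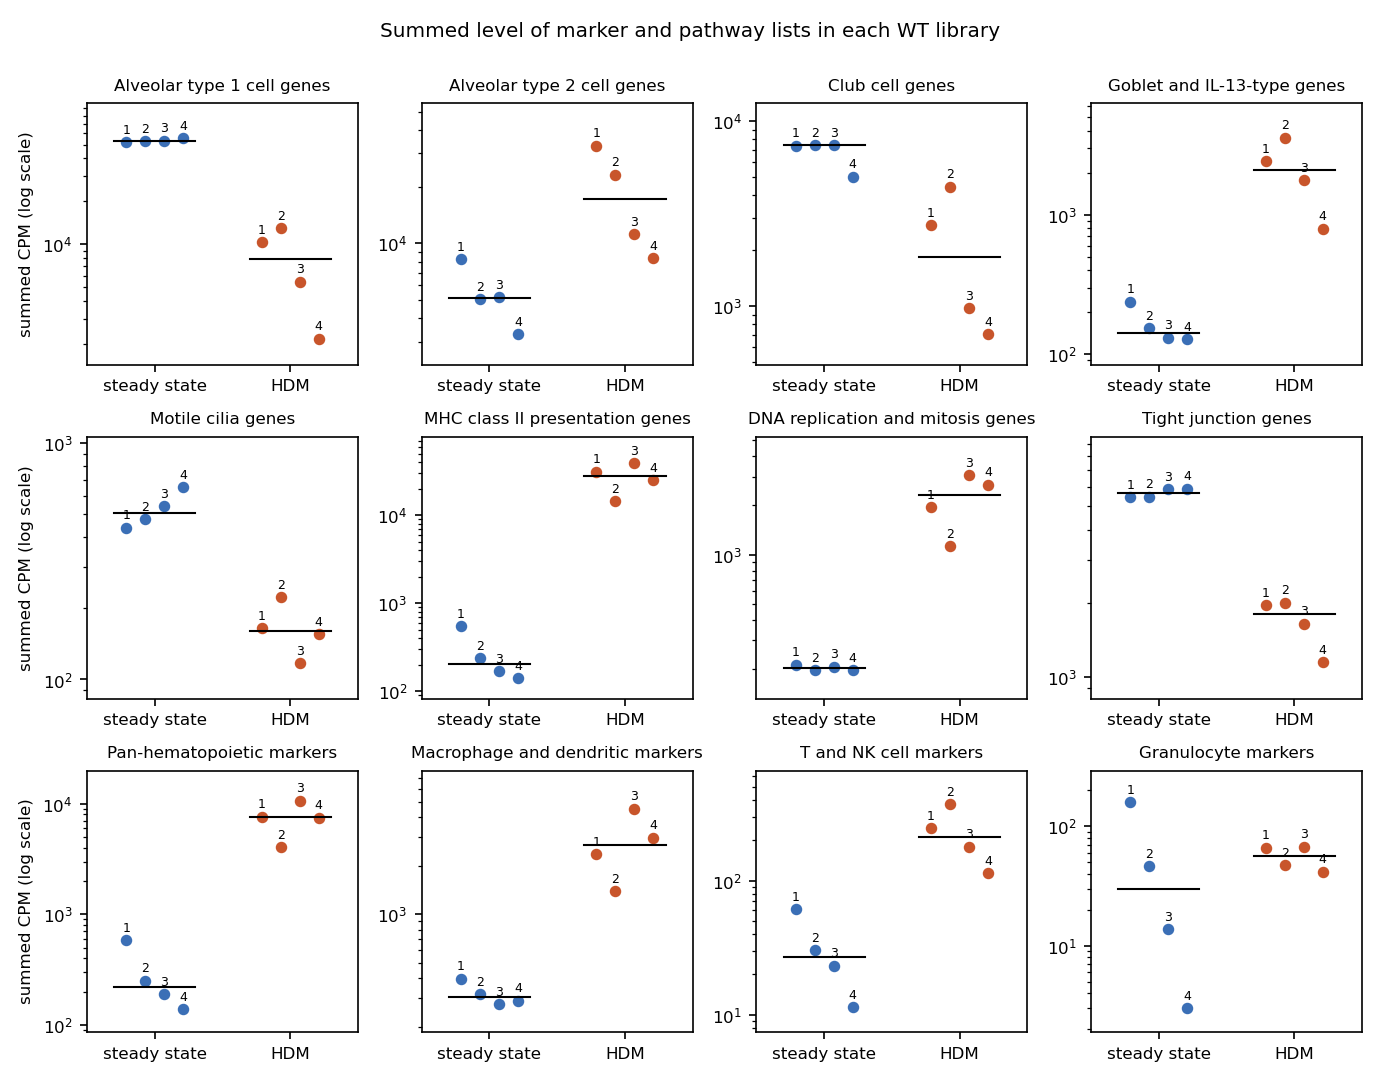
Summed CPM (vertical axis, log scale) of 12 gene lists in the 4 steady-state and 4 HDM libraries of WT, with the replicate number beside each point and a line at the group median. AT1 sums fell from 51790 to 55490 CPM at steady state to between 2171 and 12910 CPM after HDM, while pan-hematopoietic sums were at 137.9 to 581.9 and 4024 to 10680 CPM and granulocyte sums overlapped.

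The epithelial identity of the sorted cells was read from 18 genes, of which 17 were tested. Of these, 15 fell and 1 rose, and their median log2 fold change was -1.53, against -0.03 over all genes tested. The gene that rose was Epcam, the antigen the sort selected for, (ENSMUSG00000045394, chromosome 17, 87635979 to 87651129), at 106, 119, 110.2 and 148 CPM at steady state and 295, 149, 215 and 295 CPM after HDM. The libraries did not overlap, and Epcam was 1.98-fold higher (0.99 ± 0.24, edgeR adjusted p = 0.00625), with an adjusted p of 0.054 without steady-state replicate 3 and 0.0577 in the fit of all 22 libraries. Cdh1, which encodes E-cadherin, was at 817, 843, 857 and 975 CPM and at 329.6, 306, 353 and 251 CPM. It fell by 1.49 ± 0.21 on the log2 scale (edgeR adjusted p = 0.000163). Nkx2-1, the lineage transcription factor of lung epithelium, was at 73.3, 154, 228 and 326 CPM and at 22.3, 32.5, 13.6 and 10 CPM, and fell by 3.35 ± 0.50 (edgeR adjusted p = 0.000285). Its steady-state libraries spread widely but stayed above every HDM library. Krt19, a keratin of simple epithelia, was at 374, 278, 379.8 and 468 CPM and at 89.1, 88.8, 48.3 and 30 CPM (-2.55 ± 0.35). Esrp2, an epithelial splicing factor, and Krt8, with 26.9% of its 50-base stretches shared with other genes, had log2 fold changes of -1.62 ± 0.24 and -1.42 ± 0.35. Leukocyte markers moved with these genes, as given above, and their part in the lower epithelial levels was not tested.

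AT1 genes were lower almost throughout. Of 24 genes tested, 22 fell, none rose, and Hopx and Vegfa did not pass, with a median of -2.66. Their summed level was 51790, 53140, 53400 and 55490 CPM at steady state and 10370, 12910, 5447 and 2171 CPM after HDM. In these bulk libraries, fewer AT1 cells and less AT1 RNA per cell cannot be told apart. Ager (ENSMUSG00000015452, chromosome 17, 34597862 to 34600936), which encodes the receptor RAGE, was at 17340, 15070, 15510 and 14860 CPM and at 3406, 4201, 1457 and 431 CPM. The groups were far apart, and HDM replicate 4 was also well below the other HDM libraries. Ager was 6.61-fold lower (-2.73 ± 0.64, edgeR adjusted p = 0.00456). Pdpn, which encodes podoplanin, was at 773, 916, 940.2 and 1130 CPM and at 222, 276, 188 and 70.6 CPM (-2.32 ± 0.38, edgeR adjusted p = 0.000494). Clic5, a chloride channel family member, was at 3259, 3677, 4232 and 4111 CPM and at 400.1, 561, 253 and 111 CPM (-3.53 ± 0.48, edgeR adjusted p = 0.000148). Hopx, an atypical homeobox factor of AT1 cells, was the exception, at 60.6, 89.8, 77.6 and 89 CPM and 70.6, 64.4, 30.3 and 8.23 CPM. HDM replicates 1 and 2 were in the steady-state range, its change of -0.88 ± 0.51 did not pass (edgeR adjusted p = 0.18) but did with limma voom (-1.50, adjusted p = 0.00739), and its exons overlap an antisense transcript over 27.18% of their length. Akap5, a kinase anchor, Timp3, an inhibitor of metalloproteinases, Sec14l3, a lipid-binding protein, and Gprc5a, an orphan receptor, had log2 fold changes of -3.32 ± 0.42, -3.51 ± 0.51, -3.29 ± 0.48 and -2.69 ± 0.42.

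AT2 genes moved the other way. Of 23 genes tested, 17 rose and 1 fell, with a median of 1.44, and their summed level was 8232, 5077, 5200 and 3308 CPM at steady state and 32940, 23170, 11170 and 8341 CPM after HDM. The steady-state replicate 1 sum nearly reached that of HDM replicate 4. Sftpc (ENSMUSG00000022097, chromosome 14, 70520949 to 70524081), which encodes surfactant protein C, was at 4327, 2407, 2601 and 1272 CPM and at 15100, 9760, 3663 and 2191 CPM. Its groups overlapped, and the log2 fold change of 1.53 ± 0.62 did not pass (edgeR adjusted p = 0.0622), but did without HDM replicate 4 (1.85, adjusted p = 0.0141) or steady-state replicate 1 (1.86, adjusted p = 0.0494), with DESeq2 (1.51, 0.0102) and in the likelihood ratio test (1.53, 0.0187). The collectin genes gave a clearer separation. Sftpa1, for surfactant protein A, was at 1495, 894, 869 and 609 CPM and at 8953, 6505, 2922 and 2290 CPM (2.42 ± 0.50, edgeR adjusted p = 0.00226). Sftpd, for surfactant protein D, was at 156, 106, 101 and 72.2 CPM and at 1916, 1249, 592 and 457 CPM, a 9.68-fold rise (edgeR adjusted p = 0.000239). For both genes the lowest HDM library lay above the highest steady-state library. Napsa, the protease that processes surfactant protein B, was at 57.1, 37.6, 42 and 29.3 CPM and at 710, 342, 462 and 313 CPM (3.46 ± 0.33), and an antisense transcript overlaps 18.87% of its exons. Fabp5, a fatty acid carrier that macrophages also express, was at 3.29, 3.59, 2.89 and 1.24 CPM and at 145, 70, 195 and 115 CPM. It had the largest change of the list, 5.60 ± 0.42 (edgeR adjusted p = 5.81e-06). Sftpb, Lamp3, a lamellar body protein that mature dendritic cells share, and the transcription factor Cebpa rose by 1.44 ± 0.33, 2.47 ± 0.37 and 2.95 ± 0.39. Il1r1, the interleukin-1 receptor, was the member that fell, by 1.36 ± 0.23 on the log2 scale. AT1 and AT2 sums did not move in opposition across HDM libraries, since replicates 1 and 2 had the higher values and replicates 3 and 4 the lower values of both lists.

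Of the airway cell types, club cell genes were lower in part. Of 22 genes tested, 9 fell and 1 rose, with a median of -0.94, and the gene that rose was the aldehyde dehydrogenase gene Aldh1a7. Scgb1a1, the club cell secretory protein that marks these cells, was at 2819, 2991, 2615 and 1038 CPM at steady state and at 999.6, 2166, 291 and 200.4 CPM after HDM. HDM replicate 2 was in the steady-state range, and the change of -1.37 ± 0.69 did not pass (edgeR adjusted p = 0.122), although it did without that library (-2.36, adjusted p = 0.00761), with DESeq2 (-1.38, 0.047) and with limma voom (-2.64, 0.000767). Scgb3a1, another secretoglobin gene, did not pass either, at 1.76 ± 0.98. Cyp2b10, a cytochrome P450 that metabolises foreign compounds, was at 2758, 2599, 2870 and 2291 CPM and at 429, 717, 222 and 71.2 CPM (-2.87 ± 0.58, edgeR adjusted p = 0.00202), with 8.7% of its 50-base stretches shared with other genes. Gsta3, a glutathione transferase, was at 65.9, 67, 69.2 and 60.1 CPM and at 6.72, 12.4, 5.17 and 2.1 CPM, 10.8-fold lower (edgeR adjusted p = 5.49e-05). Aldh1a1, which makes retinoic acid, had a log2 fold change of -2.01 ± 0.36.

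Motile cilia genes mostly did not pass. Of 28 tested, 5 fell (Rfx2, Tppp3, Rsph4a, Spef2 and Ccdc153) and none rose, with a median of -0.76. The share that fell, 17.9%, was below the 22.2% of all genes tested. Foxj1, the master regulator of motile ciliogenesis, was at 1.46, 0.953, 1.41 and 3.4 CPM and at 1.67, 2.48, 1.25 and 1.43 CPM, with overlapping groups (-0.14 ± 0.51, edgeR adjusted p = 0.849). The gene stayed at 3.4 CPM or less, and only a large difference could be detected at this level. Tppp3, a tubulin-binding protein, was far more abundant, at 318, 359, 401 and 466 CPM and 111, 100.5, 65.6 and 59.9 CPM. It fell by 2.20 ± 0.25 on the log2 scale (edgeR adjusted p = 5.19e-05). Rfx2 and Rsph4a, a cilia transcription factor and a radial spoke protein, had log2 fold changes of -2.29 ± 0.23 and -1.22 ± 0.33. Of 7 basal cell and keratin genes tested, Itga6 rose, and Trp63, which encodes the basal cell factor p63, did not pass at -0.83 ± 0.67. Of 13 neuroendocrine genes tested, 3 fell, among them Ddc and Pcsk1, and none rose (median -1.12). That share, 23.1%, was near the 22.2% of all genes tested.

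Goblet genes and other genes known to respond to IL-13 were higher. Of 28 matched genes 18 passed the filter, 12 of which rose and none fell, with a median of 2.54. Clca1 (ENSMUSG00000028255, chromosome 3, 145003817 to 145032776), a secreted mucus protease and classical IL-13 target, was at 1.17, 1.25, 1.17 and 0.874 CPM at steady state and at 97.4, 524, 51.7 and 28.7 CPM after HDM. HDM replicate 2 had by far the most, yet all HDM libraries were above all steady-state libraries (7.29 ± 1.01, edgeR adjusted p = 0.000194). Muc5ac, the gel-forming mucin of goblet cells, was at 1.1, 0.733, 0.781 and 0.736 CPM and at 7.07, 39.3, 2.85 and 5.38 CPM. It rose 15.2-fold (edgeR adjusted p = 0.00206), and 3 of the 4 HDM libraries stayed under 10 CPM. Muc5b, the other airway gel mucin, rose by 2.12 ± 0.51. Retnla, which encodes RELM-alpha and is secreted by epithelium and by alternatively activated macrophages, was at 2.56, 6.81, 4.22 and 3.91 CPM and at 1108, 1629, 1016 and 262 CPM. It had the largest log2 fold change of the list, 7.84 ± 0.64 (edgeR adjusted p = 8.21e-06). Slc26a4, the anion exchanger pendrin, was more even across libraries, at 3.65, 3.52, 2.97 and 1.2 CPM and 161, 146, 167 and 115 CPM (5.72 ± 0.35, edgeR adjusted p = 3.44e-06). Dpp4, a peptidase that removes dipeptides from the start of peptides, and Slc5a1, a sodium and glucose transporter, rose by 1.65 ± 0.24 and 3.66 ± 0.32.

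**Figure D3:**
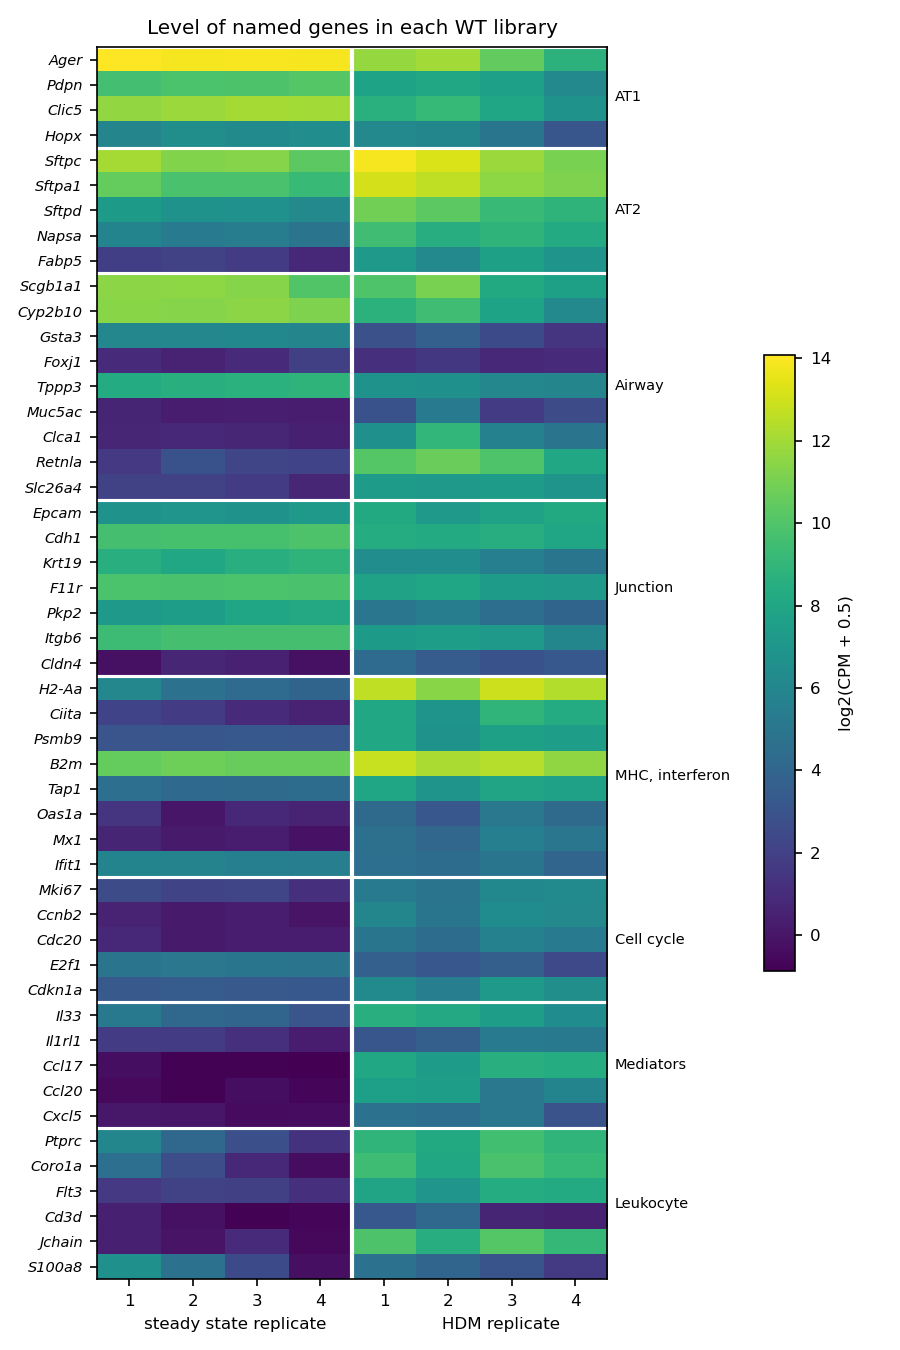
Level of 49 genes (rows, grouped by cell type or pathway) in the 4 steady-state and 4 HDM libraries of WT (columns), as log2(CPM + 0.5) from dark to light. Most AT1, junction and detoxifying genes are lighter at steady state, and most surfactant, MHC class II, cell cycle and leukocyte genes are lighter after HDM. Epcam and Cldn4, plotted with the junction genes, are lighter after HDM, and E2f1, plotted with the cell cycle genes, is darker. Hopx and S100a8 overlap between the states, and Foxj1 differs little.

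Most junction genes tested were lower. Of 29 tight junction genes tested, 19 fell and 5 rose, with a median of -1.69 and summed levels of 5433 to 5902 CPM at steady state and 1150 to 2015 CPM after HDM. F11r, the adhesion molecule JAM-A, was at 936, 889, 928 and 889 CPM and at 212, 254, 162 and 140.1 CPM (-2.25 ± 0.24, edgeR adjusted p = 3.31e-05). Cxadr, Cgn and Patj, an adhesion molecule and 2 scaffolds, had log2 fold changes of -3.01 ± 0.36, -2.58 ± 0.23 and -2.54 ± 0.27, where 17.2% of the 50-base stretches of Cgn are shared with other genes. The genes that rose included several claudins, the strands of the junction. Cldn1 (ENSMUSG00000022512, chromosome 16, 26356642 to 26371841), which leukocytes such as migratory dendritic cells also express, was at 2.05, 1.03, 1.33 and 1.38 CPM and at 443, 258, 757 and 501 CPM. It was 337-fold higher (edgeR adjusted p = 2.62e-06), while the whole list summed to less. Cldn4, typical of stressed and repairing alveolar epithelium, was at 0.365, 1.17, 0.938 and 0.368 CPM and at 19.9, 10.6, 6.95 and 9.16 CPM (4.08 ± 0.48, edgeR adjusted p = 6e-05). Cldn3 and the scaffold gene Tjp3 rose by 1.95 ± 0.35 and 1.44 ± 0.21.

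Of 23 adherens junction and desmosome genes tested, 14 fell and 2 rose (median -1.46). Pkp2, a plakophilin of desmosomes, was at 145, 183, 246 and 286 CPM and at 31.1, 41.4, 22.3 and 15 CPM (-2.99 ± 0.34, edgeR adjusted p = 4.93e-05). Jup, which encodes plakoglobin, and Vcl, which encodes vinculin, had log2 fold changes of -1.65 ± 0.19 and -2.54 ± 0.23, and 25.52% of the exons of Vcl overlap a gene on the opposite strand. Ctnnb1, which encodes beta-catenin, did not pass at 0.01 ± 0.25. The genes that rose were Nectin1 (3.04 ± 0.33) and Nectin4, adhesion molecules of the immunoglobulin family. Basement membrane and integrin genes were lower as well, 17 of 26 tested, with 1 higher, Itga6, and a median of -1.69. Itgb6, the integrin subunit that pairs with alpha v to activate TGF-beta, was at 660.5, 799, 806 and 802 CPM at steady state and at 158, 182, 148 and 63.4 CPM after HDM (-2.48 ± 0.32, edgeR adjusted p = 0.000101). The collagen IV genes Col4a1 and Col4a2 and the integrin gene Itgb1 had log2 fold changes of -2.33 ± 0.44, -2.83 ± 0.46 and -2.11 ± 0.27.

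MHC class II genes had the highest median of the 39 lists. Of 15 MHC class II presentation genes, 12 rose and 3 did not pass, with a median of 5.91. Their summed level was 546, 239, 170.2 and 142 CPM at steady state and 31180, 14480, 38990 and 25120 CPM after HDM. H2-Aa (ENSMUSG00000036594, chromosome 17, 34282744 to 34287823), the alpha chain of the class II molecule I-A, was at 66.3, 26.7, 19.9 and 15.2 CPM and at 6412, 2778, 7731 and 5180 CPM. It was 173-fold higher (edgeR adjusted p = 1.2e-05). Ciita, the transactivator that class II transcription depends on, was at 3.87, 2.78, 1.49 and 1.06 CPM and at 260.4, 117, 480 and 318 CPM (7.01 ± 0.58, edgeR adjusted p = 8.34e-06). The 3 genes that did not pass, Rfx5, Rfxank and Rfxap, encode the constitutive complex that recruits the transactivator. The peptide-loading genes H2-DMa, H2-DMb1 and H2-Oa had log2 fold changes of 6.41 ± 0.50, 4.83 ± 0.31 and 7.45 ± 0.61, and 22.7% of the 50-base stretches of H2-DMb1 are shared with other genes. Class II is carried by dendritic cells and B cells, and at lower levels by AT2 cells. The order of the HDM libraries by the class II sum was replicate 3, 1, 4 and 2, and the pan-hematopoietic sum had the same order, so the cell source was not resolved here.

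MHC class I and immunoproteasome genes rose in 17 of 22 cases and fell in none (median 2.46). Nlrc5, the class I transactivator, was at 1.75, 1.76, 1.17 and 1.01 CPM and at 54.2, 34, 58.8 and 51.4 CPM (5.14 ± 0.27, edgeR adjusted p = 2.62e-06). Psmb9, an inducible subunit of the immunoproteasome, was at 7.96, 8.13, 9.14 and 8.46 CPM and at 262, 106, 198 and 172 CPM (4.46 ± 0.28, edgeR adjusted p = 3.8e-06). Its 4 steady-state libraries were close together, and all HDM libraries lay above them. B2m, the light chain shared by class I molecules, was at 1481, 1773, 1538 and 1556 CPM and at 7210, 4662, 5462 and 3090 CPM, 3.22-fold higher (edgeR adjusted p = 0.00166). Tap1, of the peptide transporter, was at 23.3, 18.3, 18.9 and 20.6 CPM and at 239, 115, 229 and 207 CPM (3.28 ± 0.25). Psmb8 and the class I heavy chain genes H2-K1, H2-D1 and H2-Q7 rose by 4.43 ± 0.32, 2.51 ± 0.29, 1.92 ± 0.28 and 6.83 ± 0.48, where 9.6%, 12.8% and 26.4% of the stretches of the 3 heavy chain genes are shared with other genes.

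Interferon response genes were mostly higher. Of 33 tested, 21 rose and 5 fell, with a median of 1.41, and the share that fell was below that of all genes tested (22.2%). Mx1, an antiviral GTPase, was at 1.1, 0.659, 0.703 and 0.414 CPM and at 24.4, 15.9, 46.7 and 31.7 CPM (5.40 ± 0.40, edgeR adjusted p = 5.63e-06). Oas1a, a synthetase of the RNase L pathway, was at 2.19, 0.513, 1.33 and 0.965 CPM and at 19.5, 8.49, 34.8 and 19.5 CPM (4.06 ± 0.48, edgeR adjusted p = 6.11e-05), and 57.6% of its 50-base stretches are shared with other genes. Both were at 2.19 CPM or less in every steady-state library. The genes that fell were Ifit1, Ifit2, Ifit3, Ifih1 and Ddx58, which bind or sense viral RNA. Ifit1 was at 59.2, 56, 47.7 and 44.9 CPM and at 23.8, 20.9, 30.3 and 15.8 CPM (-1.20 ± 0.21, edgeR adjusted p = 0.000723). Ifit3 was at 125, 90.3, 119 and 92.9 CPM and at 23.3, 30.8, 29.4 and 9.92 CPM (-2.22 ± 0.32, edgeR adjusted p = 0.000217), with 51.2% of its stretches shared, mostly with its copy Ifit3b. Neither Ifit gene overlapped between the states. Ifit2, Ifih1 and Ddx58 had log2 fold changes of -1.02 ± 0.26, -0.57 ± 0.18 and -0.95 ± 0.16, and the calls of Ifit2 (adjusted p = 0.0958) and Ifih1 were lost in the fit of all 22 libraries. The chemokine gene Cxcl9 and the transcription factor genes Irf1, Irf9 and Stat2 rose by 3.38 ± 0.43, 1.58 ± 0.23, 1.41 ± 0.18 and 0.93 ± 0.19.

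Promoters of genes that rose and of genes that fell are shown side by side. Sequences are from RefSeq (GRCm38.p6), span 250 bases before to 50 bases from the start site, and run 5′ to 3′ on the strand of the gene. The search was for AANNGAAA, the core that interferon regulatory factors bind within the interferon-stimulated response element, on both strands, and capitals mark each match, with overlapping matches merged. The first is Oas1a (higher, chr5:120907476-120907775, minus strand), then Ifit1 (lower, chr19:34640639-34640938, plus strand) and Ifit3 (lower, chr19:34583279-34583578, plus strand). H2-Aa (higher, chr17:34287774-34288073, minus strand) is printed for CCAAT, searched on both strands, whose inverted form is the Y box of class II promoters.
Oas1a: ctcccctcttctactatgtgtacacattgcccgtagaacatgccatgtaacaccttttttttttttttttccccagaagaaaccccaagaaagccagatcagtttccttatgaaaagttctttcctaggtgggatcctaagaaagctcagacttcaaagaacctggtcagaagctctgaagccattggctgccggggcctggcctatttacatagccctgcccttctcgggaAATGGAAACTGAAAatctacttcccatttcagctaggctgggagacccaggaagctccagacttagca
Ifit1: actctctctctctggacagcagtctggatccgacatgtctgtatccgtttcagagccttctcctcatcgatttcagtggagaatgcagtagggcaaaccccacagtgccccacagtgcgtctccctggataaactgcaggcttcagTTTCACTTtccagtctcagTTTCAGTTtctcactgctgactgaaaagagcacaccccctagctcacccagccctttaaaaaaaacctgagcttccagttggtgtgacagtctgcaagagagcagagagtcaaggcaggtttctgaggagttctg
Ifit3: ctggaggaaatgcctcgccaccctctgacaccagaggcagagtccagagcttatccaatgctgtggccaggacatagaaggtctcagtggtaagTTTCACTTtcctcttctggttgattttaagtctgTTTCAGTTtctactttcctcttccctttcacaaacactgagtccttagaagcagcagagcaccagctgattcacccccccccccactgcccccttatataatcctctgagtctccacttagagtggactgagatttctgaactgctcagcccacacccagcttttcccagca
H2-Aa: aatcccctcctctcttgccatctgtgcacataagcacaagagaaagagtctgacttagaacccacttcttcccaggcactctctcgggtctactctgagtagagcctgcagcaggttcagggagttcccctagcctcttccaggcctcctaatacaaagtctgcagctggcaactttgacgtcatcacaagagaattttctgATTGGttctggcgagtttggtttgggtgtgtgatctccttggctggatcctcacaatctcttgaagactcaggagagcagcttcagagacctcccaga

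Matches to this core did not separate the genes that rose from those that fell. Of the 33 interferon genes, 25 had a promoter in the RefSeq table, and 19 of these (76.0%) held AANNGAAA, against 24.2% of all 27025 promoters and 19.9% of the promoters of genes tested. It was present in 12 of 16 promoters of higher members (75.0%) and in 4 of 5 of lower members (80.0%). In Oas1a it began 18 and 12 bases before the start site, in Ifit1 at 104 and 85 bases and in Ifit3 at 156 and 122 bases before it. CCAAT, which 37.9% of all promoters held, was present in 9 of 11 class II promoters (81.8%) and 14 of 19 class I promoters (73.7%), and in H2-Aa it lay inverted, 48 bases before the start. A match is a description of these letters only.

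Proliferation genes were almost all higher. Of 44 DNA replication and mitosis genes, 42 rose and 1 fell, with a median of 4.38. Their summed level was 213, 197, 207 and 197 CPM at steady state and 1957, 1130, 3054 and 2681 CPM after HDM. Mki67 (ENSMUSG00000031004, chromosome 7, 135689784 to 135716361), which encodes the proliferation antigen Ki-67, was at 5.62, 4.03, 4.22 and 1.7 CPM and at 39.9, 29.4, 68.8 and 76.4 CPM (3.81 ± 0.41, edgeR adjusted p = 3.47e-05). Ccnb2, a cyclin of mitotic entry, was at 1.02, 0.659, 0.703 and 0.46 CPM and at 62.7, 30.1, 82.5 and 70.4 CPM (6.46 ± 0.38, edgeR adjusted p = 3.32e-06). Every HDM library was more than 10 times above the highest steady-state library for this gene. Cdc20, which activates the anaphase-promoting complex, was at 1.31, 0.659, 0.703 and 0.736 CPM and at 30.5, 21.2, 51.2 and 40.8 CPM, and Ube2c, the ubiquitin carrier of that complex, was at 0.438, 0.586, 0.781 and 0.644 CPM and at 69.6, 30.8, 106 and 92.2 CPM. They rose by 5.40 ± 0.34 and 6.91 ± 0.43, where 10.4% of the stretches of Cdc20 are shared with other genes and Ube2c overlaps an antisense gene over 22.77% of its exons. Birc5, which encodes survivin, was at 2.05, 1.91, 1.56 and 1.29 CPM and at 54.8, 32.5, 78.4 and 64.5 CPM (5.10 ± 0.31). Top2a, Ccnb1 and the polymerase clamp gene Pcna had log2 fold changes of 4.90 ± 0.46, 6.49 ± 0.40 and 2.07 ± 0.23, and 23.4% and 19.1% of the stretches of the latter genes are shared with other genes.

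The exception was E2f1, a transcription factor of S phase entry, at 29.1, 33, 30.2 and 29.3 CPM at steady state and 12.8, 8.49, 11.9 and 4.79 CPM after HDM. It fell by 1.67 ± 0.27 on the log2 scale (edgeR adjusted p = 0.000476), while 42 genes of the list rose. Cdkn1a, which encodes the cell cycle inhibitor p21, was at 9.28, 10.7, 9.3 and 9.15 CPM and at 78, 46, 146 and 89.3 CPM (3.23 ± 0.31, edgeR adjusted p = 1.88e-05). It belongs to a list of genes of transitional alveolar cells, the state between AT2 and AT1 cells during repair, of which 9 of 22 tested rose and 7 fell (median 0.72). Cyclin D1 (Ccnd1), Trp53 and the NF-kappaB modulator Tnip3 rose by 4.77 ± 0.31, 1.60 ± 0.20 and 4.19 ± 0.43, while Tgfb2 and Mdm2 had log2 fold changes of -3.29 ± 0.33 and -0.81 ± 0.18. Which cells cycled was not resolved by these bulk counts.

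Promoters of mitotic genes that rose are shown for CCAAT and for TTTGAA, the core of the cell cycle genes homology region, both searched on either strand and set in capitals. Ccnb2 is at chr9:70421505-70421804 (minus strand), Cdc20 at chr4:118437294-118437593 (minus strand) and Ube2c at chr2:164769679-164769978 (plus strand), all from RefSeq on GRCm38.p6 and in gene orientation.
Ccnb2: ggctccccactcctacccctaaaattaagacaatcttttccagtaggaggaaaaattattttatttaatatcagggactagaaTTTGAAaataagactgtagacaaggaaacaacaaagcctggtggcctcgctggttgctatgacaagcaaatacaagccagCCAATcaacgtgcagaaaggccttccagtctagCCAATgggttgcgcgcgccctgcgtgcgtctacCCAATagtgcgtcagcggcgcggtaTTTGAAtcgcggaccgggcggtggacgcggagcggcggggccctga
Cdc20: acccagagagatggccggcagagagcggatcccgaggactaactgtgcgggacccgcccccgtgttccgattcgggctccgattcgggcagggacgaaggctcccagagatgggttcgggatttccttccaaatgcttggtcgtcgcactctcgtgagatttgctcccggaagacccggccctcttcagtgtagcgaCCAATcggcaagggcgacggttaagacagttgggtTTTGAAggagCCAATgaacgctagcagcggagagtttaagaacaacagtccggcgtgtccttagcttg
Ube2c: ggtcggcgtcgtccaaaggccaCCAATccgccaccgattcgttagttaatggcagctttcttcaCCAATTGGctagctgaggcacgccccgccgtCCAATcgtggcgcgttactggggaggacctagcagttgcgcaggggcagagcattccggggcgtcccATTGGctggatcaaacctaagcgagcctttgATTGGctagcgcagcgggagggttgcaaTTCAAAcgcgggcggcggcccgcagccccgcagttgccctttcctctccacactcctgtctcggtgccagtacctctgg

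Of the 44 genes, 36 had a promoter, and 29 of these (80.6%) held CCAAT and 19 (52.8%) TTTGAA. Over all promoters the shares were 37.9% and 18.1%, and over promoters of the genes tested 38.2% and 13.1%. Both motifs were held by 19 of the 36 promoters (52.8%), against 7.12% of all promoters and 5.3% of those of the genes tested. In Cdc20, TTTGAA began 18 bases before the start site, between CCAAT matches that began 53 and 8 bases before it. Birc5, with no match to either, and Ccnb1, with no TTTGAA, rose by 5.10 ± 0.31 and 6.49 ± 0.40, beside 6.46 ± 0.38, 5.40 ± 0.34 and 6.91 ± 0.43 for the genes printed above. Among promoters of all DEGs, TTTGAA was held by 14.1% of the 2996 higher and 11.2% of the 2419 lower genes with a promoter.

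Alarmins and inflammatory mediators were mostly higher. Of 19 genes tested, 10 rose and 2 fell (median 1.64). Il33, the alarmin stored in nuclei of AT2 and other barrier cells, was at 36.3, 17.7, 15.3 and 7.77 CPM at steady state and at 361, 279, 182 and 85.3 CPM after HDM. It was 11.8-fold higher (3.56 ± 0.55, edgeR adjusted p = 0.000353), and all HDM libraries were above all steady-state libraries. Il1rl1, which encodes its receptor ST2, was at 2.85, 3, 1.72 and 0.736 CPM and at 8.15, 12, 38 and 35 CPM (3.52 ± 0.59, edgeR adjusted p = 0.000648). The order of the HDM libraries was not the same for ligand and receptor, since replicates 1 and 2 were highest for Il33 and replicates 3 and 4 for Il1rl1. Il1b, a cytokine made mainly by myeloid cells, was at 7.6, 2.56, 1.02 and 0.23 CPM and at 39.1, 7.78, 46 and 28.1 CPM (3.47 ± 0.82, edgeR adjusted p = 0.00514). Tnf was at 0.511, 0.366, 0.469 and 0.092 CPM and at 28.7, 17.3, 51.2 and 22.9 CPM (6.46 ± 0.49, edgeR adjusted p = 5.91e-06). Casp1 and Gsdmd, which mature IL-1beta and release it, rose by 4.96 ± 0.62 and 1.88 ± 0.24. The genes that fell were Csf1 and Tnfsf15, with log2 fold changes of -1.62 ± 0.31 and -1.85 ± 0.37. Il25 and Csf3 did not pass the filter on low counts.

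Of 21 chemokine genes tested, 16 rose and 1 fell (median 3.29). Besides Ccl17, its CCR4-binding relative Ccl22 was at 0.511, 0.22, 0.86 and 0.23 CPM and at 254, 204, 878 and 529 CPM (10.04 ± 0.70, edgeR adjusted p = 4.98e-06), and both are known products of dendritic cells. Ccl20, the epithelial attractant for CCR6-bearing cells, was at 0.219, 0.073, 0.312 and 0.138 CPM and at 186, 176, 34.6 and 58.6 CPM, a rise of 9.23 ± 0.76 (edgeR adjusted p = 9.78e-06) from 11 reads in all at steady state. HDM replicates 1 and 2 were the highest for Ccl20 and the lowest for Ccl17 and Ccl22. Cxcl5, a neutrophil attractant of AT2 cells, was at 0.585, 0.513, 0.234 and 0.276 CPM and at 26.4, 22.6, 34.6 and 7.39 CPM (5.81 ± 0.53). Cxcl1 and Cxcl2 rose by 3.29 ± 0.45 and 3.42 ± 0.38, and Ccl25 was the gene that fell, by 1.00 ± 0.34 on the log2 scale (edgeR adjusted p = 0.032). That call was lost without HDM replicate 1, 3 or 4 or steady-state replicate 1 or 2 (adjusted p = 0.0711 to 0.0832).

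Cytokine receptors and JAK-STAT genes rose in 21 and fell in 4 of 34 cases (median 1.03). Il4ra, the receptor chain for IL-4 and IL-13, was at 43.3, 39.3, 42.2 and 44 CPM and at 73.2, 38.2, 80.2 and 68.2 CPM. Its change was small and the states overlapped (0.63 ± 0.21, edgeR adjusted p = 0.0301), and leaving out a single library other than HDM replicate 2 ended the call (adjusted p = 0.0545 to 0.137). Stat6, which that receptor activates, was at 100.3, 94.2, 101 and 116 CPM and at 120.5, 98, 156 and 127 CPM and did not pass (0.29 ± 0.18, edgeR adjusted p = 0.213), nor did Stat3 at 0.28 ± 0.19, while both passed with limma voom (0.47 and 0.43, adjusted p = 0.0156 and 0.0251). Socs1, a feedback inhibitor of JAK kinases, was at 1.24, 1.54, 1.56 and 1.98 CPM and at 16.1, 7.78, 20.1 and 20.8 CPM (3.36 ± 0.31, edgeR adjusted p = 1.51e-05). Socs2, Jak2, Jak3 and Crlf2, a chain of the TSLP receptor, rose by 2.33 ± 0.20, 3.50 ± 0.25, 3.78 ± 0.33 and 4.80 ± 0.39. Il6st, the signalling chain gp130, was at 214, 209.6, 199 and 238 CPM and at 80.7, 67.6, 79.7 and 73.4 CPM (-1.51 ± 0.16, edgeR adjusted p = 2.82e-05), and Il10rb, Il17rc and Il1r1 were the other receptors that fell, at -1.28 ± 0.19, -1.52 ± 0.32 and -1.36 ± 0.23.

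The aryl hydrocarbon receptor (AhR), a ligand-activated transcription factor that tryptophan metabolites can bind, was a centre of the study. Ahr was at 7.82, 9.74, 13.2 and 12.3 CPM at steady state and at 21.9, 18.8, 21 and 12.6 CPM after HDM, 1.72-fold higher with an overlap of the states (0.78 ± 0.23, edgeR adjusted p = 0.016). The call was lost without HDM replicate 2 or steady-state replicate 1 or 2 (adjusted p = 0.058, 0.0504 and 0.0533). Arnt, its dimerisation partner, was at 54.4, 59.4, 71.4 and 72.1 CPM and at 37.9, 37.9, 48.1 and 45.6 CPM (-0.60 ± 0.16, edgeR adjusted p = 0.0103). Cyp1b1, a target of AhR that can degrade its ligands, was at 1.46, 2.27, 0.938 and 0.644 CPM and at 0.982, 3.18, 1.96 and 3.02 CPM, with 77 and 76 reads in all. Its change of 0.75 ± 0.57 did not pass (edgeR adjusted p = 0.305), and Cyp1a1, Cyp1a2 and Ahrr did not pass the filter on low counts. Tiparp, another target and a feedback inhibitor of AhR, was at 84, 139, 109 and 173 CPM and at 51.4, 59.4, 57.4 and 61.9 CPM (-1.14 ± 0.22, edgeR adjusted p = 0.00158), and the target Nqo1 had a log2 fold change of -1.95 ± 0.39. Several enzymes of the kynurenine pathway rose. Kmo, which hydroxylates kynurenine, was at 3.73, 2.35, 1.88 and 1.06 CPM and at 206, 88.4, 338 and 212 CPM (6.57 ± 0.52, edgeR adjusted p = 7.12e-06). Haao, which acts further down, was at 0.731, 0.293, 0.391 and 0.138 CPM and at 32.4, 13.1, 32.6 and 20.1 CPM (6.05 ± 0.46), and Kynu rose by 5.14 ± 0.49. The enzyme that yields kynurenine, Afmid, rose by 2.61 ± 0.56, with 40.3% of its stretches shared with a predicted gene, and the tryptophan tRNA ligase gene Wars had a log2 fold change of -1.23 ± 0.19. Tdo2, an enzyme that starts the pathway, was between 1.7 and 6.59 CPM at steady state and between 0.535 and 3.18 CPM after HDM and fell by 1.78 ± 0.62 on the log2 scale (edgeR adjusted p = 0.0349), a call that was lost when any library other than HDM replicate 2 or steady-state replicate 4 was left out (adjusted p = 0.0511 to 0.1). Macrophages and dendritic cells are known to carry several of these enzymes, 19 of their 22 markers tested rose in the same libraries, and their part in these values was not tested. Of 18 genes of the AhR and tryptophan list tested, 7 rose and 5 fell (median 0.69).

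Of 30 xenobiotic metabolism genes tested, which encode detoxifying enzymes, 15 fell, 3 rose and 12 did not pass (median -1.02), with sums of 6339 to 7067 CPM at steady state and 663.9 to 2473 CPM after HDM. Beside Cyp2b10 and Gsta3 above, Cyp3a13, the flavin monooxygenase gene Fmo5 and the epoxide hydrolase gene Ephx1 had log2 fold changes of -3.54 ± 0.33, -2.15 ± 0.19 and -2.25 ± 0.31, while the carbonyl reductase gene Cbr3 rose by 3.08 ± 0.38. Of 26 NRF2 antioxidant genes, 9 rose and 8 fell (median -0.14), and 65.4% passed in either direction, against 49.4% of all genes tested. Gclc and Gclm encode both subunits of the enzyme that starts glutathione synthesis, and they went opposite ways. Gclc, the catalytic subunit, was at 12.6, 13.3, 6.33 and 7.95 CPM and at 168, 144, 59.5 and 53 CPM (3.40 ± 0.43, edgeR adjusted p = 9.87e-05), while Gclm, the modifier subunit, fell by 1.25 ± 0.25 on the log2 scale (edgeR adjusted p = 0.00189). Prdx6, a peroxiredoxin with a role in surfactant turnover, was at 5002, 5363, 5094 and 6073 CPM and at 1080, 1285, 435 and 263 CPM (-2.81 ± 0.50, edgeR adjusted p = 0.000878). Txn1 rose by 1.22 ± 0.19, and neither Nfe2l2, which encodes NRF2, nor its inhibitor Keap1 passed, at -0.34 ± 0.16 and -0.37 ± 0.15, although both did with DESeq2 (adjusted p = 0.0245 and 0.0491) and with upper-quartile scaling (0.0119 and 0.00283).

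Lipid synthesis genes moved both ways. Of 29 sterol and fatty acid synthesis genes tested, 15 rose, 3 fell (Scd2, Elovl5 and Acss2) and 11 did not pass (median 0.83), yet the summed level was lower, 4903 to 5679 CPM at steady state and 2446 to 3035 CPM after HDM. Scd2, a stearoyl-CoA desaturase that made up most of the steady-state sum, was at 2678, 3715, 3091 and 3370 CPM and at 403, 463, 414 and 221 CPM, 8.57-fold lower (edgeR adjusted p = 2.65e-05). Fads1, a desaturase of polyunsaturated fatty acids, was at 13.9, 10.3, 8.52 and 8.37 CPM and at 43.5, 33.2, 63.6 and 63.5 CPM (2.32 ± 0.26, edgeR adjusted p = 4.06e-05). Fasn, the fatty acid synthase, Mvd, of the mevalonate pathway, and Srebf2, the sterol-sensing transcription factor, rose by 1.61 ± 0.18, 2.43 ± 0.36 and 1.73 ± 0.27.

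Of 30 unfolded protein response genes, 8 rose and 7 fell (median 0.22), shares near those of all genes tested (27.3% and 22.2%). The chaperone genes Sdf2l1 and Calr rose by 3.04 ± 0.33 and 1.94 ± 0.25, Sel1l and Dnajc3 had log2 fold changes of -1.32 ± 0.18 and -1.26 ± 0.19, and Hspa5 and Hsp90b1, the most abundant chaperones of the endoplasmic reticulum, did not pass at -0.47 ± 0.26 and 0.18 ± 0.24, although Hspa5 did with DESeq2 (-0.51, adjusted p = 0.0469). Immediate early genes, which respond to tissue handling as well as to stimuli, rose in 18 and fell in 3 of 28 cases (median 1.69). Fos was at 33.9, 15.2, 38.4 and 38.2 CPM and at 323, 186, 471 and 246 CPM (3.29 ± 0.38, edgeR adjusted p = 5.04e-05). Junb was at 78, 66.7, 89.5 and 73.5 CPM and at 615, 350.5, 539.7 and 436 CPM (2.66 ± 0.23, edgeR adjusted p = 1.11e-05). The groups were apart for both genes. Ier2 and Dusp2 rose by 3.97 ± 0.36 and 5.58 ± 0.43, whereas Dusp1 and Klf6 had log2 fold changes of -0.79 ± 0.21 and -1.26 ± 0.19, so members of the list moved both ways.

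Of 20 circadian clock genes tested, 3 rose and 7 fell (median -0.53). Bhlhe40, a repressor of the clock that activated lymphocytes and myeloid cells also express, was at 14.5, 7.33, 7.74 and 6.16 CPM and at 272, 165, 454 and 378 CPM (5.15 ± 0.41, edgeR adjusted p = 7.43e-06). Arntl, which encodes the core activator BMAL1, was at 44.7, 37.3, 41.2 and 35.4 CPM and at 19.9, 20.5, 17.6 and 15.2 CPM (-1.12 ± 0.16, edgeR adjusted p = 0.000194). Its partner Clock and the repressor Cry2 had log2 fold changes of -1.17 ± 0.19 and -2.30 ± 0.31, and Per1 rose by 1.86 ± 0.40. The hour of sampling is not stated in the sources used here.

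Ion and water transport genes rose in 9 and fell in 7 of 22 cases (median 0.14). The subunits of the epithelial sodium channel, which clears alveolar fluid, all fell, at log2 fold changes of -1.38 ± 0.31, -2.74 ± 0.47 and -2.89 ± 0.56 for Scnn1a, Scnn1b and Scnn1g. Scnn1g was at 1617, 1801, 1764 and 1674 CPM and at 311, 408, 166 and 42.8 CPM (edgeR adjusted p = 0.00149). Ano1, a chloride channel, had a log2 fold change of -2.89 ± 0.37. Those that rose included Kcnn4, a potassium channel of activated immune and secretory cells, at 0.585, 0.44, 0.391 and 0.184 CPM and 30.7, 18.8, 40.3 and 39.7 CPM (6.39 ± 0.37, edgeR adjusted p = 3.16e-06), pendrin and the aquaporin gene Aqp3 (5.37 ± 0.70).

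In the Notch, TGF-beta and Wnt list, 7 of 29 genes tested rose and 11 fell (median -0.04). Hes1, the main Notch target, was at 126, 113, 223 and 234 CPM at steady state and at 15.8, 15.6, 6.24 and 4.37 CPM after HDM, 16.8-fold lower (edgeR adjusted p = 4.91e-05). Id2, an inhibitor of helix-loop-helix factors that dendritic and lymphoid cells need, was at 45.4, 28.9, 49.5 and 28.1 CPM and at 1662, 865, 855 and 676 CPM (4.74 ± 0.38, edgeR adjusted p = 7.43e-06). Tgfbr2, Smad3 and Bmp4 had log2 fold changes of -2.44 ± 0.26, -1.92 ± 0.21 and -2.94 ± 0.27, and the receptor gene Notch2 rose by 1.67 ± 0.25. Of 24 antimicrobial and complement genes tested, 12 rose and 5 fell (median 1.33). Lcn2, which encodes the iron-sequestering lipocalin 2, was at 6.14, 4.1, 4.14 and 2.8 CPM and at 570, 258, 215 and 148 CPM, 69.6-fold higher (edgeR adjusted p = 7.62e-06). Pigr, the receptor that carries IgA and IgM across epithelium, C3 and the protease inhibitor gene Slpi rose by 4.73 ± 0.40, 1.47 ± 0.25 and 3.77 ± 0.91, while the flagellin receptor gene Tlr5 had a log2 fold change of -3.14 ± 0.24. Of 13 mitochondrially encoded genes, 5 rose, among them mt-Co1 and mt-Nd1 at 1.40 ± 0.37 and 1.14 ± 0.34, and mt-Nd4l fell by 1.49 ± 0.45 on the log2 scale, where 51.1% and 98.8% of the stretches of mt-Co1 and mt-Nd4l are shared with other genes. Some single-library omissions ended the calls of mt-Nd1 (edgeR adjusted p = 0.0549 and 0.06) and mt-Nd4l (0.0508 to 0.0534). The fit of all 22 libraries ended those of mt-Co1 (0.0651) and mt-Nd1 (0.154).

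The same contrast was read in the libraries labelled CYP1B1-KO, with 4 HDM libraries and 3 at steady state. Cyp1b1 itself was at 3.6, 5.47 and 5.7 CPM in steady-state replicates 2 to 4 and at 8.81, 14, 4.74 and 4.75 CPM in HDM replicates 1 to 4 of that label. These levels, scaled apart from the WT libraries, were above the WT levels, so the counts summed over this gene do not show its deletion. Which part of the gene is deleted is not given in the sources used here. These libraries are not used in the WT comparison, but HDM, run and sex-linked transcripts coincide in them in the same way (Ddx3y at 19.6 to 89.1 CPM at steady state and at 0 after HDM). Of 14380 genes tested, 2006 were higher and 1999 lower after HDM (27.9% in all, 13.9% in each direction, edgeR). With genes of at least 1% of a library left out, the split was 1835 higher and 1026 lower. Of the WT DEGs that were tested in both, 3659 of 3806 higher ones (96.1%) and 3059 of 3093 lower ones (98.9%) had the same sign, and 1834 (48.2%) and 1846 (59.7%) passed in the same direction. None passed in the other direction. The change differed between the WT and CYP1B1-KO labels in 0 of 15768 genes (edgeR interaction test), with 358 at an unadjusted p under 0.05, 0 in the likelihood ratio test and 1 in DESeq2.

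In the libraries labelled CYP1B1-KO the log2 fold changes were -2.99 ± 0.88 for Ager, 3.24 ± 1.02 for Sftpc, 8.64 ± 1.10 for H2-Aa, 4.00 ± 0.62 for Mki67, 7.27 ± 1.48 for Clca1, 12.10 ± 1.64 for Ccl17 and 6.49 ± 1.09 for Ptprc. The corresponding WT values were -2.73 ± 0.64, 1.53 ± 0.62, 7.43 ± 0.66, 3.81 ± 0.41, 7.29 ± 1.01, 11.17 ± 0.51 and 4.48 ± 0.92. AT1 genes fell in 23 of 24 cases (median -3.09), AT2 genes rose in 16 of 23 (median 2.77), MHC class II genes in 12 of 15 (median 6.75) and replication and mitosis genes in 40 of 44 (median 4.02). Motile cilia genes had a median of 0.43 against -0.76 in WT, with 0 higher and 2 lower, and goblet genes a median of 2.74 with 10 of 23 higher. The pan-hematopoietic sum was 124 to 158.9 CPM at steady state, and after HDM it was 2938, 515.8, 8560 and 7009 CPM in replicates 1 to 4. Replicate 2 was thus the HDM library with the lowest pan-hematopoietic sum under the 2 labels. The T and NK cell marker sum of WT HDM replicate 2, at 369.6 CPM, was the highest of the WT HDM libraries.

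**Figure D4:**
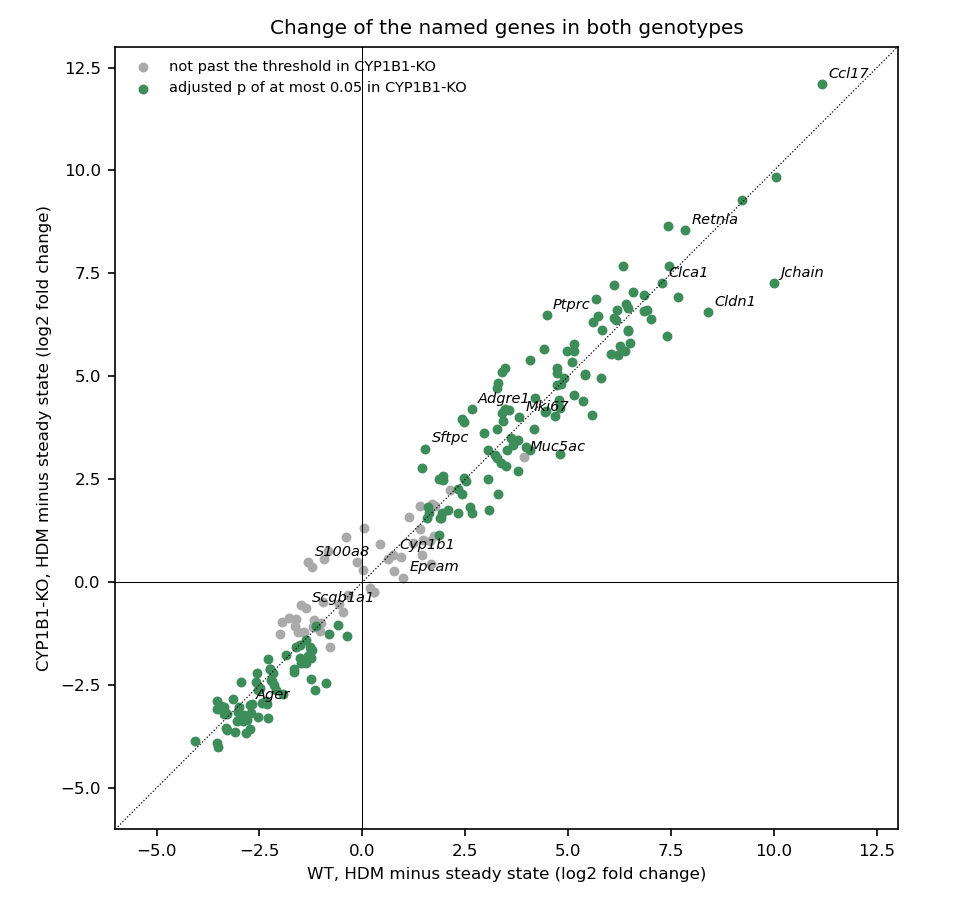
Log2 fold change of HDM over steady state in WT (horizontal axis) and in the libraries labelled CYP1B1-KO (vertical axis) for 223 genes named in the text and tested in both, with 1 point a gene, green where CYP1B1-KO passed an adjusted p of 0.05, and a dotted line of equal change. Most points lie along the line (214 with the same sign), and Foxj1, Scgb1a1 and S100a8 passed under neither label.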

How the data were processed

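Sorted lung ECs were profiled by RNA-seq from poly-A-primed, template-switched and tagmented cDNA. The values are counts of reads per gene as the authors deposited them, in 1 table for HDM and 1 for steady state, with no normalization. The submitters' notes name bcl2fastq 2.19.1, GSNAP with mm10 (GRCm38) and featureCounts 2.0.0, and strand and multimapping settings are not given in the sources used here. The tables were joined by gene identifier and annotated with GENCODE M21, which matched 54147 of 54373 genes, and protein-coding genes outside X and Y were kept.

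The low-count filter was filterByExpr with a minimum count of 10 and total of 15, and genes were tested with edgeR 4.0.16 in R 4.3.3 (TMM, robust quasi-likelihood fit, Benjamini-Hochberg adjusted p of at most 0.05) on the 8 WT libraries. CPM uses TMM library sizes, and SE is the log2 fold change over the root of F. The code was tested on simulated data. Named genes were the 12 of lowest p in each direction without overlap between states, up to 5 of lowest p per list and direction, the first 3 of each list and a fixed set, and some of these are not reported here. Genes that complete a count of 5 or fewer were named after their values were seen, as were further examples of a list. Genes and lists were chosen with earlier results of these data known. Shared sequence was the share of 50-base transcript stretches found in another gene. Alternatives covered the test (DESeq2 1.42.0, limma 3.58.1 voom), filter, normalization, samples, replicate block, a leukocyte covariate and each library left out. The AhR-deficient libraries were used only in a fit of all 22 libraries.

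The numbers of same-numbered HDM and steady-state libraries did not pair them (correlation of deviations -0.18, 0.3, -0.21 and -0.42), so no block was used.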

Additional observations from a re-analysis of the deposited data

Results flagged for a closer look

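Of 262 groups of 4 libraries examined, 13 held a library far from the other 3 by Dixon's criterion, which chance alone passes in about 1 in 20 groups. WT steady-state replicate 4 had 17707000 counts, against 10476829 to 11273312 in the other steady-state libraries, and 13569308 against 7595905 to 7903793 outside the dominant predicted genes. In the same library the summed club cell genes were at 5018 CPM (7385 to 7428 in the others), cytokine receptor and JAK-STAT genes at 2006 CPM (1720 to 1745) and Scgb1a1 at 1038 CPM (2615 to 2991). WT steady-state replicate 1 stood apart in Ccl17 at 0.292 CPM, Muc5ac at 1.1 CPM, Itgb6 at 660.5 CPM and Cdc20 at 1.31 CPM. WT steady-state replicate 2 stood apart in Cdkn1a at 10.7 CPM and in Fos at 15.2 CPM, where the others were at 33.9 to 38.4 CPM. For each of these genes other than Scgb1a1 the states did not overlap.

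After HDM, replicate 1 had 15512503 counts, against 9654825 to 10319824 in the others. HDM replicate 3 had Pecam1 at 24.8 CPM, against 9.47 to 10.8 CPM.

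Outside the protein-coding genes tested, immunoglobulin and T cell receptor segments took at least 0.0748% of counts in every HDM library, against 0.00293% to 0.023% at steady state. Of the 4099 genes outside that class that were tested, 836 were higher and 536 lower after HDM by the same test (edgeR). Xist was at 94.6 CPM in the lowest HDM library and at 1.01 to 3.08 CPM at steady state.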

How the results depend on the processing

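State, sequencing run and sex-linked transcripts coincide, and no alternative separates them. Alternatives other than the covariate gave 4760 to 8390 genes past the threshold in WT, against 6918, and no WT DEG passed in the opposite direction under any of them. Leaving out each library in turn gave 6016 to 7401. DEGs numbered 8244 with limma voom and 8390 with all genes of the tables, X and Y genes included. The upper-quartile scaling shifted the median change of the genes shared with the reported fit by -0.14 and turned the split from 55.2% to 48.9% higher, and shifts of -0.11, -0.11 and -0.13 came with all 22 libraries in the fit, without HDM replicate 2 and without steady-state replicate 3. A replicate block gave 6066 genes in WT, where the numbers did not pair the libraries, and 601 in CYP1B1-KO.

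With the pan-hematopoietic level as a covariate, 0 genes passed in WT (1891 unadjusted) and 284 in CYP1B1-KO (edgeR). CYP1B1-KO gave 6123 genes with limma voom and between 2629 and 4514 when single libraries were left out, with 2629 without steady-state replicate 3, against 4005. The difference between the labels WT and CYP1B1-KO stayed at 0 genes in the likelihood ratio test and 1 in DESeq2. Of 224 named genes, 11 lost their call when some single library was left out, among them Ifih1, Ccl25, Siglecf, mt-Nd1 and mt-Nd4l beside those given above, and 3 gained one, Sftpc, Scgb1a1 and Keap1. The fit of all 22 libraries ended 10 calls, those of Epcam (adjusted p = 0.0577), Ahr (0.0914), Il4ra (0.383), mt-Nd1 (0.154), Ifih1, Sftpb (0.0837), Ifit2 (0.0958), Stat2 (0.0702), Dusp1 (0.0828) and mt-Co1 (0.0651), and testing with no low-count filter those of Adgre1 (0.0702) and Mrc1 (0.0552), among others. Calls were gained by Hopx, Trp63, Stat3, Stat6, Nfe2l2 and Scgb1a1 with limma voom, by Sftpc, Scgb1a1, Hspa5, Keap1 and Nfe2l2 with DESeq2, by Sftpc and Cd3e in the likelihood ratio test, by Hspa5, Keap1 and Nfe2l2 with upper-quartile scaling, by Keap1 and Nfe2l2 with at least 10 counts in every library and by Scgb1a1 with the replicate block (adjusted p = 0.0188). The replicate block ended the calls of Ccl25 (edgeR adjusted p = 0.0572), Il4ra (0.0569) and Tdo2 (0.0688). With genes of at least 1% of a library left out, Ahr, Ccl25, Ifih1, Il4ra, Ms4a1 and Tdo2 lost theirs. Upper-quartile scaling ended the calls of Ms4a1 and Tdo2.

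In the covariate fit, 14 named genes had another sign, and none of them passed. Ptprc, Coro1a and Laptm5 belong to the pan-hematopoietic list whose mean level is the covariate. Their values and that list's median in this fit therefore carry no separate information. Values were -1.45 for Ptprc, -0.96 for Coro1a, -1.04 for Laptm5, -1.64 for Cd68, -2.33 for Adgre1, -2.47 for Mrc1, -2.34 for Ms4a1, -2.65 for Siglecf, -2.21 for Pecam1, 0.11 for Nkx2-1, -2.92 for Il1b, -0.06 for Casp1, 0.03 for Tiparp and 0.36 for Gclm. List medians became 1.08 for motile cilia, -0.17 for transitional, -0.72 for alarmin, 0.21 for NRF2, -0.09 for unfolded protein response, -0.16 for ion transport, -0.30 for pan-hematopoietic, -1.09 for macrophage and dendritic, -5.31 for granulocyte and -1.65 for B cell genes. Under other settings, medians that crossed 0 were ion transport (-0.32 with voom, -0.19 without HDM replicate 2 in a leave-one-out range up to 0.32), erythroid and platelet (0.23 with voom, 0.04 with the replicate block, 1.21 without steady-state replicate 1 in a range from -1.85), T and NK cell (-0.07 with at least 10 counts in every library) and endothelial (1.25 with that filter, 0.10 without steady-state replicate 1 in a range from -0.95). The cause of these changes was not tested.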
